A study of Homo sapiens with 6 samples.

Results

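Bone morphogenetic proteins (BMPs) and transforming growth factor beta (TGF-beta) are secreted ligands of one superfamily. They bind paired type I and type II receptor kinases, which phosphorylate receptor SMADs that then enter the nucleus with the shared partner SMAD4. ID1, ID2 and ID3 are classic BMP target genes whose products block E-protein transcription factors. SMAD6, SMAD7 and the decoy receptor BAMBI restrain the signal and are themselves induced by it. The genes described here are the ligands BMP2 and BMP4, the decoy receptor BAMBI, the signalling SMADs SMAD3 and SMAD4, the inhibitory SMADs SMAD6 and SMAD7, and the targets ID1, ID2 and ID3. They were chosen by symbol, with earlier results of these data known. They are 10 of the 56638 gene symbols in the count tables, and all 10 passed the filter on low counts that left 22452 genes.

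The RNA-seq data came from HCT116, an established human colorectal carcinoma line that is known to carry inactivating TGFBR2 mutations and so to respond poorly to TGF-beta. There were 3 wild type (WT) samples and 3 samples in which METTL3, the catalytic subunit of the N6-methyladenosine (m6A) RNA methyltransferase, had been targeted with CRISPR/Cas9 (METTL3-KO). All 6 shared the same culture conditions, McCoy's 5a medium with fetal bovine serum, with no BMP or TGF-beta treatment named. The knockout line was 1 monoclonal line made by lentiviral delivery, so loss of METTL3 and the choice of clone cannot be told apart. Nothing in the labels says whether the 3 samples of a group were separate cultures, so p-values measure the spread between these samples, which may be technical. In bulk RNA, fewer cells that express a gene and less RNA per cell cannot be told apart.

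The samples held between 20936091 and 30142144 counts on genes. METTL3 itself was at 29.2 to 30.6 CPM (counts per 1000000 counts, on scaled library sizes) in WT and at 6.89 to 7.69 CPM in METTL3-KO samples, and its log2 fold change was -2.04 (SE 0.0906). METTL3 transcripts were thus still counted in all 3 METTL3-KO samples. The names under which the counts were deposited abbreviate the groups as NC and SiM3 and number the NC samples 1, 3 and 4. SiM3 can also be read as siRNA against METTL3, which would be a knockdown and no clonal knockout line, and the data do not settle this. The authors describe the RNA-seq as a comparison of METTL3-knockout with WT cells, and checked the knockout by sequencing and Western blot. The groups and replicate numbers used here are those of the labels, WT and METTL3-KO with 1 to 3 in each, so every METTL3-KO value rests on the labels being right. Of 8 epithelial markers 4 were higher in METTL3-KO samples and none lower, against 13.3% higher and 13.2% lower of all tested genes. EPCAM, KRT18, CDX1 and CDX2 did not pass. The summed levels were 5800 to 7193 CPM in WT and 8297 to 9253 CPM in METTL3-KO samples. KRT8 made up most of each sum, with means of 4119 CPM in WT and 5290 CPM in METTL3-KO samples. Of 8 markers of leukocytes, endothelium, fibroblasts and muscle, PECAM1 and COL1A2 had no count in any sample. The list summed to 5.63 to 7.07 CPM in WT and 9.39 to 10.5 CPM in METTL3-KO samples, with LUM higher. COL1A1 made up most of each sum, with means of 5.42 CPM in WT and 6.99 CPM in METTL3-KO samples, and did not pass. The part of these marker differences in the results below was not tested. The third replicate stood apart in both groups. The chi-square per gene between replicates 1 and 2 was 2.58 in WT and 2.34 in METTL3-KO samples, against 23.1 and 23.0 for the third WT replicate and 11.2 and 8.32 for the third METTL3-KO replicate.

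The comparison between the groups asked how these genes stood after METTL3 was targeted. SMAD7 and BMP2 were higher in METTL3-KO cells, and SMAD4 and BMP4 were lower. The 3 ID genes, SMAD3, SMAD6 and BAMBI did not pass the test. The groups were compared with the quasi-likelihood test of edgeR, p-values were adjusted by Benjamini and Hochberg over all tested genes, and a gene was called where the adjusted p was under 0.05. By this rule 4 of the 10 genes were called. At an unadjusted p under 0.05 there were 5, against 37.5% of all tested genes. Over all 22452 tested genes 26.5% were called, 13.3% higher and 13.2% lower, so 2 calls in each direction among 10 genes lie close to the background. The WT and METTL3-KO values did not overlap for 5 of the 10 genes, against 40.9% of all tested genes. The median log2 fold change was 0.00 over the 10 genes and -0.02 over all tested genes. The fold changes ran from -0.55 for SMAD4 to 0.63 for SMAD7 on the log2 scale.

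**Figure D1:**
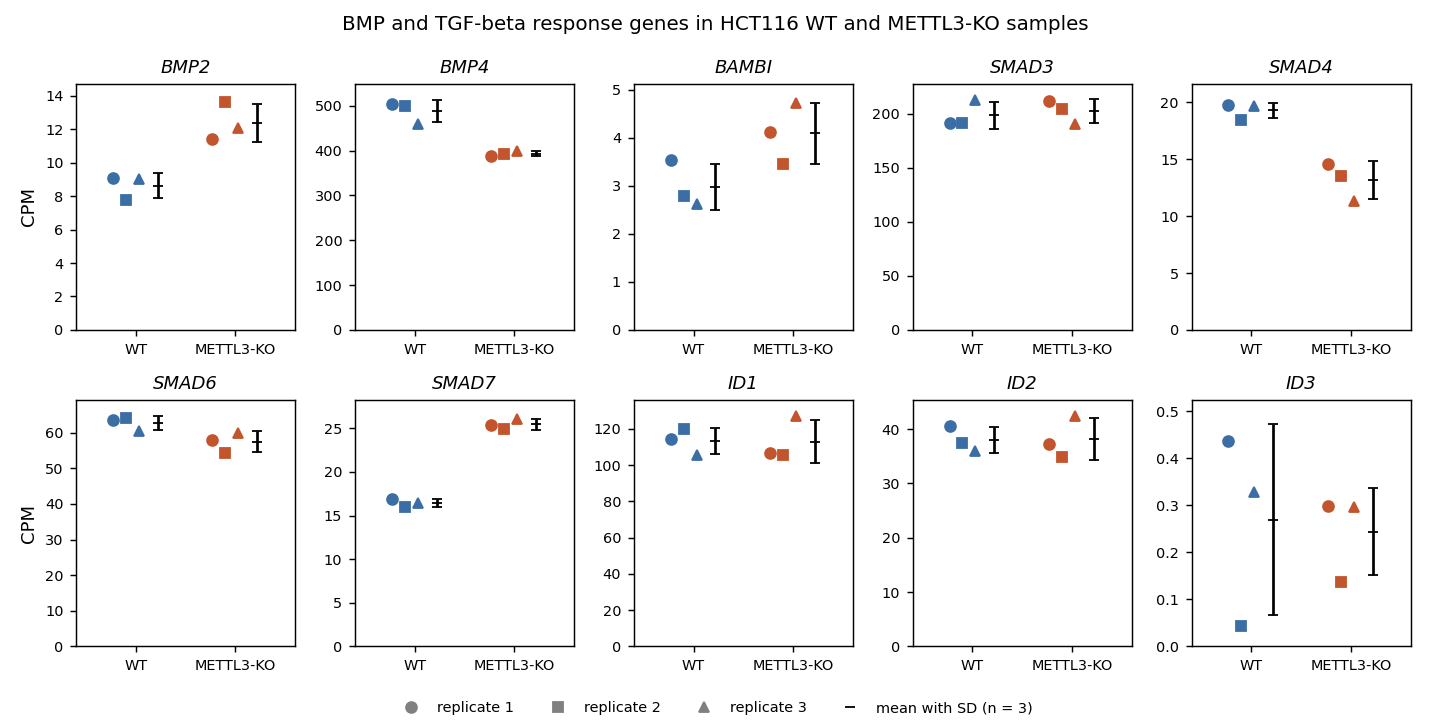
Level of each of the 10 genes in CPM (vertical axes, from 0, scaled separately per gene) in the 3 WT (blue) and 3 METTL3-KO (orange) samples, with symbols for the replicate number and bars for the mean and SD. The groups are apart for BMP2, BMP4, SMAD4, SMAD6 and SMAD7, and overlap for ID1, ID2, ID3, SMAD3 and BAMBI, where the third METTL3-KO replicate is the highest of the 6 samples for ID1, ID2 and BAMBI.

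Levels were compared between genes per length, as CPM per kilobase of the canonical transcript (RPKM). BMP4 stood highest in WT cells at 252 ± 12.7 RPKM (SD, n = 3), at percentile 98.2 of the 12086 tested genes that had a known transcript length and averaged a log2 CPM of 0 or more. ID1 followed at 115 ± 7.46 RPKM. SMAD3 at 30.7 ± 1.92 RPKM and ID2 at 29.3 ± 1.82 RPKM came next, and their WT samples overlapped. SMAD6 stood at 16.4 ± 0.517 RPKM and its relative SMAD7 at 4.93 ± 0.145 RPKM. BMP2 at 2.43 ± 0.215 RPKM and SMAD4 at 2.20 ± 0.0793 RPKM overlapped. BAMBI followed at 1.76 ± 0.286 RPKM, below SMAD4 in each WT sample. In METTL3-KO cells the order of the genes was the same except that BAMBI, at 2.42 ± 0.373 RPKM, stood above SMAD4, whose samples lay between 1.29 and 1.66 RPKM, with no overlap.

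ID3 was the exception among the ID genes. In WT it had 12, 1 and 7 counts and in METTL3-KO it had 9, 3 and 7, whereas ID1 had 2251 to 3212 counts per sample. ID4, the remaining ID gene, had 0 counts in all 6 samples, which allows at most 3 counts per sample, or 0.0995 to 0.141 CPM. The HCT116 cells thus carried ID1 and ID2 transcripts at a measurable level, and those of ID3 and ID4 near or under the limit of counting.

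BMP4, a ligand that signals through BMP receptors and the most abundant of the 10 genes, is encoded on the minus strand at chr14:54416454-54425479 (GRCh37). Its level in the WT samples was 503, 500 and 459 CPM. In the METTL3-KO samples it was 387, 391 and 398 CPM. The groups did not overlap, with METTL3-KO lower, and the METTL3-KO samples lay closer together than the WT samples. The mean fell from 487 ± 24.6 to 392 ± 5.53 CPM (SD, n = 3), which is 1.24-fold lower, with a log2 fold change of -0.31 (SE 0.0673) and an edgeR adjusted p of 0.00463.

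BMP2, a close relative of BMP4 that binds the same receptors, lies on the plus strand at chr20:6748333-6760893. Its level was 9.07, 7.74 and 9.05 CPM in the WT samples. The METTL3-KO samples had 11.4, 13.6 and 12.1 CPM. All METTL3-KO samples lay above all WT samples, the opposite direction to BMP4. The mean rose from 8.62 ± 0.761 to 12.4 ± 1.12 CPM, 1.43-fold, with a log2 fold change of 0.52 (SE 0.113) and an edgeR adjusted p of 0.00500.

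Because BMP2 and BMP4 are read by the same receptors, their counts were also set against each other within each sample, where library size cancels. There were 55.5, 64.6 and 50.7 BMP4 counts per BMP2 count in the WT samples. The METTL3-KO samples had 34.0, 28.8 and 33.0. The groups did not overlap, and the mean ratio was 1.78-fold lower in METTL3-KO cells. BMP4 nonetheless made up most of the pair in both groups, since BMP2 made up 1.74% of the summed CPM in WT cells and 3.05% after METTL3 was targeted. The sum of both ligands went from 496 ± 24.3 CPM to 405 ± 5.79 CPM, with no overlap.

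m6A was not measured in these count tables. A common sequence context of m6A, GGACT in the sense strand, was looked up in the canonical transcripts to show where such words lie in the genes that moved. Among 13565 tested protein-coding genes, 91.3% held the word at least once, with a median of 0.943 per kilobase. BMP4 held 6 copies, or 3.11 per kilobase (percentile 98.6 of those genes), and BMP2 held 7, or 1.98 per kilobase (percentile 90.2). ID3, with 3 copies in 950 bases, had 3.16 per kilobase, while ID1 had none in 983 bases. SMAD7 with 4 copies and SMAD4 with 10 had 1.20 and 1.14 per kilobase, and SMAD6 with 2 had 0.522 per kilobase. BMP2 and BMP4 were both rich in the word and moved in opposite directions. The following windows, in the sense strand and 5′ to 3′ with the word in capitals, are coding sites of the 4 genes that were called. The BMP2 and BMP4 windows are shown because they lie at a matching place. In both genes the A of the word is 280 bases before the last base of the stop codon. SMAD7 held 2 coding sites and SMAD4 held 3, and the windows shown for these genes are examples. Sites outside the coding sequence are not shown.
BMP4, chr14:54417020-54417040, minus strand: ctctatgtGGACTtcagcgat
BMP2, chr20:6759446-6759466, plus strand: ttgtacgtGGACTtcagtgac
SMAD7, chr18:46447961-46447981, minus strand: gacaacccGGACTccaggacg
SMAD4, chr18:48584717-48584737, plus strand: taccacctGGACTggaagtag
A word of this kind is a description of the sequence and does not show a modified base.

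BAMBI, a membrane protein that resembles a type I receptor without its kinase and damps BMP and TGF-beta signals, lies at chr10:28966439-28971861. It had only 56 to 124 counts per sample. Its level was 3.53, 2.79 and 2.63 CPM in the WT samples. In the METTL3-KO samples it was 4.11, 3.46 and 4.72 CPM. The groups overlapped, since the first WT replicate lay above the second METTL3-KO replicate. The log2 fold change was 0.45 (SE 0.172, 95% interval 0.07 to 0.82) with an edgeR adjusted p of 0.0755. Without the first WT replicate the log2 fold change was 0.60 (adjusted p 0.0462), and without the third replicates of both groups it was 0.26 (adjusted p 0.239). The gene also passed with all 6 samples under a looser filter and under a length and GC correction, so its call depended on the setting.

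SMAD4, the partner shared by the BMP and TGF-beta receptor SMADs, lies on the plus strand at chr18:48554898-48611415. Its level was 19.7, 18.5 and 19.7 CPM in the WT samples. The METTL3-KO samples had 14.6, 13.6 and 11.3 CPM. All METTL3-KO samples lay below all WT samples, with the third METTL3-KO replicate the lowest. The mean fell from 19.3 ± 0.696 to 13.1 ± 1.67 CPM, 1.46-fold lower, with a log2 fold change of -0.55 (SE 0.106) and an edgeR adjusted p of 0.00225. Without the third replicates of both groups the log2 fold change was -0.44. A protein-coding gene model on the same strand shares 814 of the 8772 bases of the SMAD4 transcript (9.28%) in the annotation used here. Union-mode counting discards pairs in bases that 2 genes share, so the level of SMAD4 would be understated in both groups if the counting annotation held that model.

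SMAD3, a receptor SMAD of the TGF-beta and activin arm, showed no such change. Its level was 191, 191 and 213 CPM in the WT samples. It was 212, 205 and 190 CPM in the METTL3-KO samples. The groups overlapped, and the log2 fold change was 0.03 (95% interval -0.14 to 0.19) at an edgeR adjusted p of 0.820. The third replicate was the highest of the WT samples and the lowest of the METTL3-KO samples, and without the third replicates of both groups the log2 fold change was 0.12 with an adjusted p of 0.0110. The number of SMAD3 counts per SMAD4 count went from 10.3 ± 0.571 in WT to 15.5 ± 1.17 in METTL3-KO cells, with no overlap.

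SMAD7, an inhibitory SMAD that recruits ubiquitin ligases to the receptors and restrains both arms, lies on the minus strand at chr18:46446223-46477335 and gave the largest log2 fold change of the 10 genes. Per sample it stood at 16.9, 16.0 and 16.5 CPM in the WT samples. The METTL3-KO samples had 25.4, 24.9 and 26.1 CPM. The samples of each group lay close together and the groups were far apart. The mean rose from 16.5 ± 0.484 CPM to 25.5 ± 0.615 CPM, 1.55-fold, with a log2 fold change of 0.63 (SE 0.0817) and an edgeR adjusted p of 0.000165.

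SMAD6, the other inhibitory SMAD and the one more closely tied to the BMP arm, lies on the plus strand at chr15:66994574-67075187. Its level was 63.6, 64.0 and 60.4 CPM in the WT samples. It was 58.0, 54.2 and 60.0 CPM in the METTL3-KO samples. The METTL3-KO samples all lay below the WT samples, but the third replicates nearly met. The log2 fold change was -0.13 (SE 0.0742, 95% interval -0.29 to 0.04) with an edgeR adjusted p of 0.241. Without the third replicates of both groups it was -0.18 with an adjusted p of 0.00388. Within each sample, SMAD7 counts per SMAD6 count were 0.266, 0.249 and 0.273 in WT. In METTL3-KO they were 0.438, 0.459 and 0.435. The groups did not overlap, and the mean ratio of the inhibitory SMADs was 1.69-fold higher in METTL3-KO cells.

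**Figure D2:**
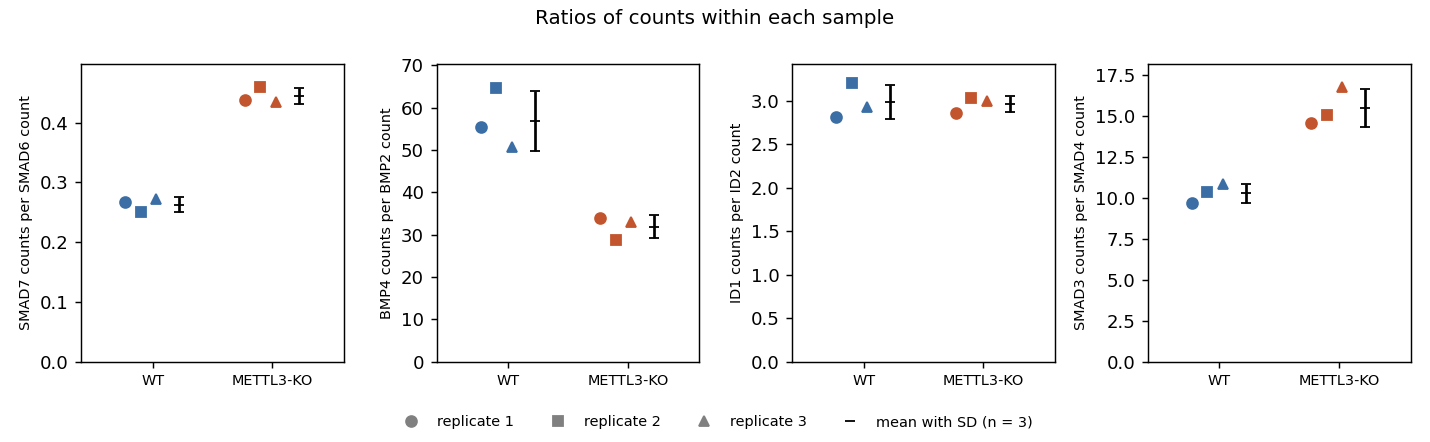
Counts of one gene per count of another within each sample (vertical axes, from 0), for SMAD7 per SMAD6, BMP4 per BMP2, ID1 per ID2 and SMAD3 per SMAD4, with WT samples in blue, METTL3-KO samples in orange and bars for the mean and SD (n = 3). The ratios are apart between the groups for SMAD7 per SMAD6, BMP4 per BMP2 and SMAD3 per SMAD4, and overlap for ID1 per ID2.

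Motifs known from BMP and TGF-beta target promoters were looked up on both strands of the RefSeq promoter windows, which run from 250 bases before to 50 bases after a start site. The table is on GRCh38.p14 and its windows were placed on GRCh37 by exact sequence match. It held 17 promoters of 9 of the 10 genes, and none for BMP2. The GC-rich BMP-response motif GGCGCC was present in 19.2% of all 34796 promoters. It occurred 3 times in the BAMBI promoter, 2 times in one promoter each of BMP4 and SMAD3, and once in that of SMAD4. The short SMAD-binding word CAGAC was present in 45.3% of all promoters. It occurred 4 times in 1 SMAD3 promoter, and 2 times each in the BAMBI promoter and the first SMAD7 promoter. It was also present in at least 1 promoter each of ID3 and BMP4. The 8-base palindrome GTCTAGAC, made of GTCT and its reverse complement AGAC, was present in 0.193% of all promoters, and 1 of them was that of SMAD6. None of the 3 motifs was in these windows of ID1 or ID2. The following windows, on the strand of the gene and with the motif in capitals, are from the promoters of genes that were called and from SMAD6, whose palindrome is the rarest match.
SMAD6, chr15:66994553-66994578, plus strand: cgccaaagtGTCTAGACtggcatatg
SMAD7, chr18:46477448-46477473, minus strand: cttattttgcCAGACgtctcatgcgg
SMAD4, chr18:48556448-48556473, plus strand: ctgccctgtaGGCGCCtgcgcagagc
BMP4, chr14:54421985-54422010, minus strand: ggggaacccgGGCGCCcgccccttct
A match is a description of the sequence. Binding was not measured in these data.

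ID1, a dominant-negative helix-loop-helix protein and one of the most direct readouts of BMP signalling, lies at chr20:30193086-30194318. Its level was 114, 120 and 106 CPM in the WT samples. It was 107, 106 and 127 CPM in the METTL3-KO samples. The groups overlapped, and the highest and the second highest value belonged to different groups. Both means were 113 CPM, with an SD of 7.34 CPM in WT and 11.96 CPM in METTL3-KO samples. The log2 fold change was -0.01 (SE 0.0885) with a 95% interval of -0.20 to 0.19 and an edgeR adjusted p of 0.972. The interval bounds a change in either direction at this depth, and does not show that the level was the same.

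ID2, which blocks E proteins as ID1 does, lies at chr2:8818975-8824591. Its level was 40.6, 37.5 and 36.0 CPM in the WT samples. It was 37.3, 34.8 and 42.3 CPM in the METTL3-KO samples. As for ID1, the third replicate was the lowest of the WT samples and the highest of the METTL3-KO samples. The log2 fold change was 0.00 (95% interval -0.20 to 0.20) with an edgeR adjusted p of 0.984. ID3 gave a log2 fold change of -0.15 (95% interval -1.53 to 1.23), which is too wide to give a direction at its few counts. The library kit did not mark strand, and gene models on the opposite strand overlap parts of the ID2, BMP4, SMAD3 and SMAD4 loci. Reads from both strands cannot be told apart where exons overlap, and union-mode counting would discard them if the counting annotation held both models. A lncRNA model on the same strand also lies within the SMAD6 locus. At ID2 the antisense model, ID2-AS1, ends at position 8821994 of chromosome 2, before the ID2 coding site of the GGACT word at position 8822524.

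The ID genes moved with the third replicates. The third WT replicate was 0.900 times the mean of the other 2 for ID1 and 0.922 times for ID2, whereas the third METTL3-KO replicate was 1.20 and 1.18 times that mean. Without the third replicates of both groups the log2 fold change of ID1 was -0.15 with an edgeR adjusted p of 0.00721, and that of ID2 was -0.12 with an adjusted p of 0.142. Correcting for the length and GC content of transcripts, an alternative chosen after the data were seen, gave 0.01 for ID1 and 0.07 for ID2, neither of which passed the test. The number of ID1 counts per ID2 count was 2.98 ± 0.200 for WT, 2.96 ± 0.0930 for METTL3-KO, and ran from 2.81 to 3.21 over the 6 samples, with overlap.

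**Figure D3:**
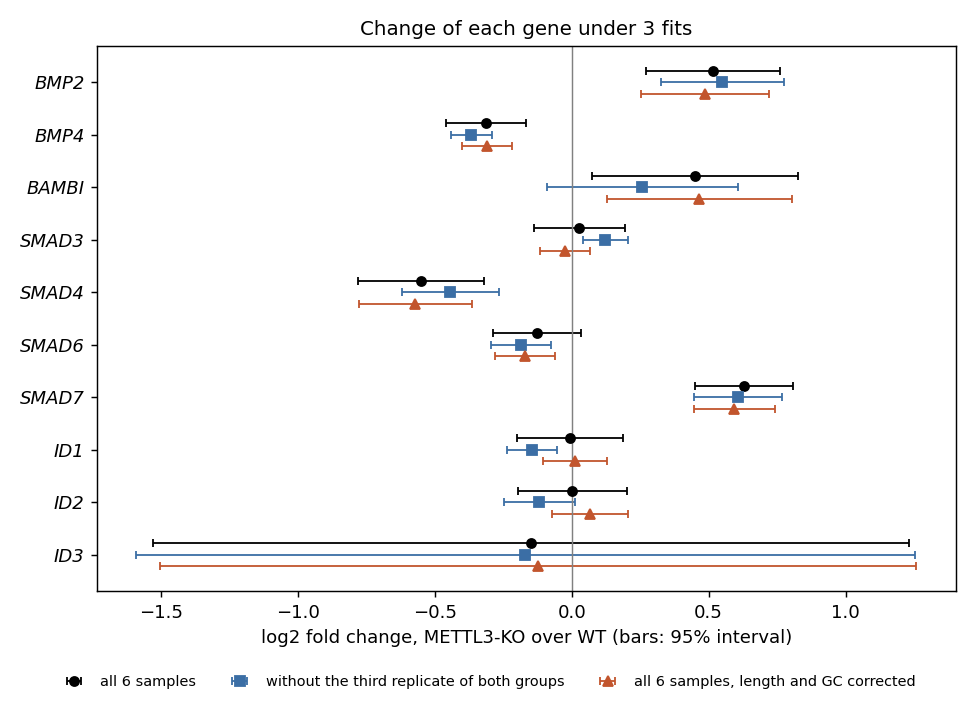
Log2 fold change of each gene, METTL3-KO over WT (horizontal axis), with its 95% interval, from edgeR with all 6 samples (black circles), without the third replicate of both groups (blue squares) and with a length and GC correction (orange triangles). BMP2, BMP4, SMAD4 and SMAD7 keep their side of 0 with intervals that leave out 0 under all 3 fits, while ID1 moves from -0.01 to -0.15 without the third replicates.

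Around these 10 genes, 83 other genes of the pathway were read from the same test, of which 65 passed the filter. Of the 65, 13 were higher and 9 lower, or 33.8%, against 26.5% of all tested genes. Their median log2 fold change was 0.06. Many of all tested genes had few counts. Under a stricter filter on low counts, 22 of 51 pathway genes (43.1%) were called, against 37.4% of all 16124 genes kept. The lists were ligands, receptors, other SMADs, extracellular antagonists, intracellular negative regulators, other BMP targets, TGF-beta targets and E proteins. They were chosen with earlier results of these data known, so their shares are descriptions and not tests.

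Of 12 tested ligands, 1 was higher and 3 were lower, or 33.3% called against 26.5% of all tested genes. TGFB2, a TGF-beta ligand, rose from 10.4 ± 1.32 to 23.9 ± 0.913 CPM, a log2 fold change of 1.21. GDF11, an activin-like ligand, fell by 0.85 on the log2 scale, and GDF15, a stress-induced distant member of the family, fell by 0.66. The third lower ligand was GDF9, named after its values were seen. TGFB2 thus moved up while BMP4 moved down.

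Of 14 tested receptors, 2 were higher and 2 lower, or 28.6% called, close to the 26.5% of all tested genes. TGFBR2, the type II TGF-beta receptor that is mutated in this line, rose from 126 ± 14.5 to 200 ± 13.3 CPM, a log2 fold change of 0.66. TGFBR1, its type I partner, fell by 0.59 on the log2 scale. TGFBR3, a coreceptor also called betaglycan, had a log2 fold change of 0.49. ENG, the endoglin coreceptor, was the other lower receptor and was named after its values were seen. BMPR1A and BMPR2 did not pass the test. BMPR1A, a type I BMP receptor, had a log2 fold change of -0.22 (adjusted p 0.0934) and BMPR2, the type II receptor, 0.28 (adjusted p 0.110). The third WT replicate of BMPR2, at 82.4 CPM, lay above the other WT samples at 60.5 and 62.4 CPM, and without it the log2 fold change was 0.44 with an adjusted p of 0.000477.

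Of the other receptor SMADs, SMAD1 and SMAD5 carry the BMP signal and SMAD2 the TGF-beta signal. SMAD1 had a log2 fold change of 0.06 (adjusted p 0.680). SMAD5 had -0.29 (adjusted p 0.0920), and its METTL3-KO samples lay below its WT samples. That value rested on the third WT replicate, at 99.8 CPM against 72.5 and 74.9 CPM, without which it was -0.13 (adjusted p 0.232). Without the third replicates of both groups SMAD5 was at -0.06 (adjusted p 0.350). With all 6 samples it passed in edgeR under a looser filter (-0.28, adjusted p 0.00816) and under the length and GC correction (-0.30, adjusted p 0.00146). It did not pass with DESeq2 (adjusted p 0.0915) or with any single sample left out, so its call depended on the setting. SMAD9, the third BMP receptor SMAD and named after its values were seen, was the 1 of 4 that passed. That is 25%, against 26.5% of all tested genes. SMAD9 fell by 1.09 on the log2 scale, from 2.05 ± 0.280 to 0.967 ± 0.156 CPM.

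Among the antagonists and negative regulators the directions were mixed. Of 7 tested extracellular antagonists 28.6% were called, against 26.5% of all tested genes. SOSTDC1, which binds BMPs, was higher with a log2 fold change of 0.69, and TWSG1, a BMP-binding modulator, fell by 0.51 on the log2 scale. Of 10 intracellular negative regulators, 3 were higher and 1 lower, or 40% called against the same 26.5%. SKIL, a SMAD corepressor, had a log2 fold change of 0.43 and SMURF2, a ubiquitin ligase that works with SMAD7, had 0.34. TGIF2, another corepressor, fell by 0.41 on the log2 scale. LDLRAD4, named after its values were seen, was the remaining higher gene and had 83 counts in all 6 samples together.

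The target genes of the BMP and TGF-beta arms gave different counts. Of 6 tested other BMP targets, 0 were called by edgeR and 0 by DESeq2, and 1 had an unadjusted edgeR p under 0.05. Only MSX2 of them had over 100 counts in all samples together. Of 9 tested TGF-beta targets, 5 were higher and 1 was lower, 66.7% against 26.5% of all tested genes, and their median log2 fold change was 0.44. Each of the 9 had 231 or more counts in all samples together. Of the 16124 genes kept by the stricter filter on low counts, 37.4% were called, a closer background for them. CTGF, a matricellular protein, was at 2.55, 3.50 and 2.11 CPM in WT. In METTL3-KO it was at 9.09, 8.83 and 7.44 CPM, and the log2 fold change was 1.64 (SE 0.172). CDKN2B, an inhibitor of cell cycle kinases, rose from 13.7 ± 0.604 to 26.3 ± 1.59 CPM, a log2 fold change of 0.94. CDKN1A, LTBP1 and JUNB, named after their values were seen, were the other higher targets. TGFB1I1, a focal adhesion protein, fell by 1.17 on the log2 scale. The difference between the lists was not tested, and the genes of this list answer to other signals as well. The list was also chosen with earlier results of these data known. Of the E proteins that ID proteins bind, TCF3 rose from 116 ± 3.31 to 170 ± 6.70 CPM, a log2 fold change of 0.56, and TCF4 and TCF12 did not pass.

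**Figure D4:**
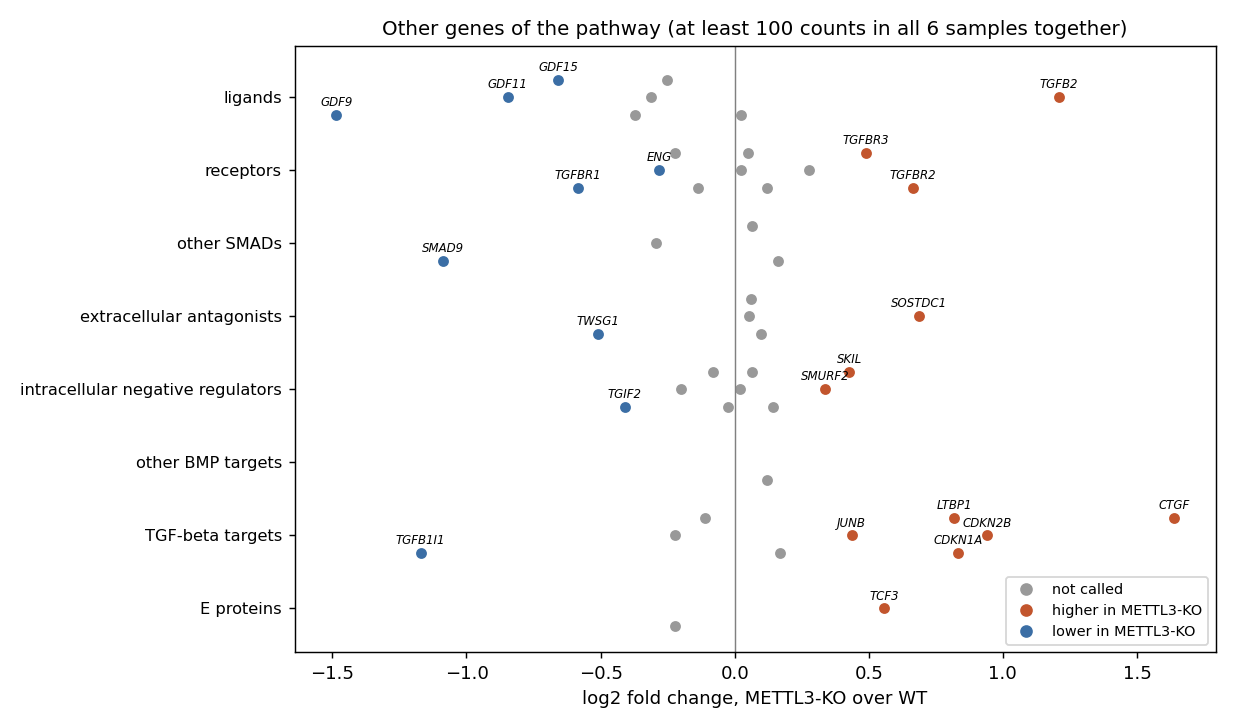
Log2 fold change, METTL3-KO over WT (horizontal axis), of the 48 tested pathway genes with at least 100 counts in all 6 samples together, by list (vertical axis), with higher calls in orange, lower calls in blue and genes that were not called in grey. TGF-beta targets reach from -1.17 for TGFB1I1 to 1.64 for CTGF, and the single BMP target plotted was not called.

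The nearest tested genes on either side were read from the same test. Of 20 such genes, 2 of which are SMAD3 and SMAD6 themselves, 2 were higher, 2 lower and 16 not called, or 20% called against 26.5% of all tested genes. Several of them could hardly be called, such as HAO1 with 6 and RNU6-384P with 9 counts in all samples together. CTIF, next to SMAD7, rose from 17.0 ± 0.299 to 21.7 ± 0.866 CPM, a log2 fold change of 0.35. DYM, on the other side of SMAD7, had a log2 fold change of 0.21 and was not called (edgeR adjusted p 0.0733). All METTL3-KO samples of DYM lay above all WT samples. CDKN3, on the other side of a gap of 438088 bases from BMP4, fell by 0.36 on the log2 scale. FERMT1, the nearest tested gene on one side of BMP2 at 644472 bases, fell by 0.26 on the log2 scale while BMP2 rose. SVIL, 774406 bases from BAMBI, had a log2 fold change of 0.37 with an edgeR adjusted p of 0.0471. SMAD3 and SMAD6 lie 280914 bases apart on chromosome 15 and neither was called.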

How the data were processed

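Total RNA of 6 HCT116 samples was sequenced. The authors aligned paired-end reads to hg19 with TopHat 2.0.11 and an Ensembl GRCh37 index, and assigned the pairs to genes with htseq-count (union mode). The raw counts of each gene symbol were deposited, without normalization. Pairs assigned to no gene (28.2% to 30.7% of each file's total) were left out.

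As in the authors' methods, a gene was dropped if its total was below 5 counts in each condition. METTL3-KO was compared with WT by edgeR's quasi-likelihood test (edgeR 4.0.16, R 4.3.3, TMM, two-sided, Benjamini-Hochberg over 22452 genes). CPM values use TMM-scaled library sizes, and SE is the log2 fold change over the root of F. Intervals are 95% intervals from the same fit. Positions and lengths came from GENCODE on GRCh37, where 33872 of 56638 symbols matched. Promoter windows came from RefSeq.

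Named genes were all 10 members, METTL3, BMPR1A, BMPR2, TGFBR2, SMAD1, SMAD5, ID4, up to 3 called genes per list with the largest change (log2 CPM averaging 1 or more), and the nearest tested genes, besides those named in the text after their values were seen. The members and lists were chosen with earlier results of these data known. DESeq2 (1.42.0, Wald test), RLE normalization, other filters, a replicate block and leaving out samples were tried as alternatives. A length and GC correction, alone and with the block, was added after the data were seen.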

Additional observations from a re-analysis of the deposited data

How the results depend on the processing

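SMAD7, BMP2 and SMAD4 passed the test in 14 of 14 alternatives and BMP4 in 13 of 14, each with one direction. With the replicate block, 3529 genes were called against 5945, and the members called were 3. BMP4 (-0.31, adjusted p 0.0638), TGFBR3 (0.0512), SKIL (0.0504) and SMURF2 (0.0576) did not pass there. Same-numbered samples did not deviate together (correlations -0.441, -0.266 and -0.663), and the deposited names number the WT samples otherwise. The third replicates, which stood apart, weigh heavily on these correlations, so a weaker pairing could not be seen. Whether the numbers pair the samples is thus not settled. Without the third replicate of both groups 9378 genes and 7 members were called. The added members were ID1, SMAD3 and SMAD6. Leaving out each sample in turn gave 4217 to 7602 genes and 4 to 5 members called, the fifth being BAMBI without the first WT replicate. BAMBI also passed without a filter beyond 1 count (adjusted p 0.0410) and with the length and GC correction (0.0345), which was chosen after seeing the data and under which SMAD6 passed too (0.0194). BMPR2 and SMAD5 passed under that correction (adjusted p 0.000654 and 0.00146). DESeq2 called 5608 genes and 4 members. The cause of these differences was not tested. Counts of 1 to 12 per sample limit ID3.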
